A study of Mus musculus with 4 samples.

Results

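Glycosphingolipids were followed here at the level of mRNA, through the 10 genes that lead from ceramide to gangliosides and globosides: Ugcg, B4galt5, B4galt6, St3gal5, St3gal2, St8sia1, St8sia5, B4galnt1, B3galt4 and A4galt. They were found by matching the RefSeq accession of each probe outside the controls to a gene symbol. All 10 of the 10 were found among 22911 named genes, with 16 probes in all, and all 16 probes were well above background on the 4 arrays. The cells were MC3T3-E1, a clonal mouse line of calvarial origin that is used as a model of osteoblasts. The groups were an untreated Control, 50 µM Miglustat, 10 µM D-PDMP and 1.0 µM D-PPMP, each read on 1 Agilent one-colour array. The inhibitors were given for 4 days, after which the cells were replated and grown for 24 h before harvest.

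All 3 compounds inhibit glucosylceramide synthase, the product of Ugcg. Miglustat is an iminosugar, whereas D-PDMP and D-PPMP are ceramide analogues with a morpholine ring that differ from each other in the length of the acyl chain. The synthase joins glucose to ceramide on the cytosolic face of the Golgi, and galactosyltransferases in the Golgi lumen then add galactose to give lactosylceramide. From lactosylceramide the path divides: sialyltransferases open the ganglioside series, and a galactosyltransferase opens the globo series. Gangliosides are best known from the nervous system, and simple ones such as GM3 are found on many cell types, where they sit in the outer leaflet of the plasma membrane. The arrays measured mRNA and gave no value for enzyme activity or for lipids.

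A level below is the log2 of the scanner's processed signal minus the 75th percentile of the same array, so that 0 stands for the 75th percentile. Levels of different genes come from different probes and were not set against each other. A ratio is the log2 level with an inhibitor minus that of Control, and a gene was called different at 2-fold or more. With 1 array per group there was no replicate error and no test, so precision is limited by that number. The error given after ± is the scanner software's own estimate for a ratio of 2 spots, which covers the measurement and not the spread between cultures. Its median over all genes was 0.204, and it was nearly the same for every gene of the 10 that was not dim. For those genes it acts as an almost fixed limit, and a ratio inside it can still be larger than the spot SD given next. Probes with 9 or 10 usable spots on the same array showed what that measurement is worth: the median SD of their log2 signals was 0.0287 to 0.0363 at signals of 256 or more, 0.0883 to 0.107 at 32 to 256, and 0.303 to 0.477 below 32. These medians rested on 256 to 261, 4 to 6 and 18 to 20 probes per array, with no filter for detection. The inhibitor doses differed, so the 3 ratios are given side by side. Which array was highest or lowest is said only to describe the values, and no inhibitor was tested against another. All 3 ratios share the same Control array, and the 4 arrays lay at different positions of 1 slide, so that a position effect and a treatment effect cannot be told apart.

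The share of probes well above background was between 57.4% in Control and 62.4% with D-PPMP, and no spot was saturated. Of 10 osteoblast markers, 7 were well above background on all 4 arrays, among them Runx2, Sp7 and Col1a1, whereas Alpl and Ibsp were so on none. Of 5 markers each of other cell types, 4 neural, 3 macrophage or osteoclast, 2 adipocyte, 2 chondrocyte, 1 endothelial and 0 skeletal muscle markers were well above background on all 4 arrays. Among the markers present on all 4 arrays were Csf1r, Cd68 and Ctsk of macrophages or osteoclasts, Sox9 and Col2a1 of chondrocytes, and Pecam1 of endothelium, whereas Ptprc, Acan and Cdh5 were well above background on no array. The neural markers present on all 4 arrays were Tubb3, Snap25, Syp and Mapt. Of the adipocyte markers Fabp4 and Cebpa were so, whereas Plin1 and Lpl were well above background on none.

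Genes measured on all 4 arrays were divided by mean level into 3 classes of equal size: dim (below -0.31), middle, and bright (above 2.54). The classes matter here because the median spread of a gene over the 4 arrays was 0.36 log2 units among dim genes, 0.18 in the middle class and 0.14 among bright ones. B4galt5, St3gal5 and St3gal2 were bright, Ugcg, B4galt6 and B4galnt1 fell in the middle class, and St8sia1, St8sia5, B3galt4 and A4galt were dim.

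No gene of the path reached 2-fold with any inhibitor, against 0.388%, 0.325% and 0.507% of all measured genes with Miglustat, D-PDMP and D-PPMP. At 1.5-fold the count was 0, 0 and 1 of 10, beside 2.68%, 2.54% and 3.44% of all genes. At a smaller limit of 0.32 log2 units it was again 0, 0 and 1 of 10, beside 10.4%, 9.71% and 12.8%. The single gene past these limits was St8sia5 with D-PPMP. The medians of the 10 ratios were -0.09, 0.02 and -0.02, and those of all measured genes -0.02, 0.00 and -0.01. Under normexp background correction, which models the background and adds an offset of 50 units, the D-PDMP median of the 10 was below 0 (-0.04). That offset draws the ratios of dim spots toward 0. The same median was also below 0 under quantile (-0.04) and cyclic loess (-0.03) normalization, which fit the arrays to each other. Below Control lay 8, 5 and 5 of the 10, beside 55.5%, 50.4% and 51.5% of all genes. On the brightest probes 3 of the 30 ratios were farther from Control than their own measuring error: B3galt4 with Miglustat and with D-PPMP, and St8sia5 with D-PPMP. That was 1, 0 and 2 of 10 genes, against 19.5%, 18.3% and 22.6% of all genes. Over the 16 probes it was 8 of 48 ratios, since 5 of the 18 ratios on the other probes also exceeded their error: 1 of St8sia1, 1 of St3gal2 and 3 of B4galnt1. The shares of all genes are for brightest probes, so they give no background for the 48 or the 18 ratios.

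**Figure D1:**
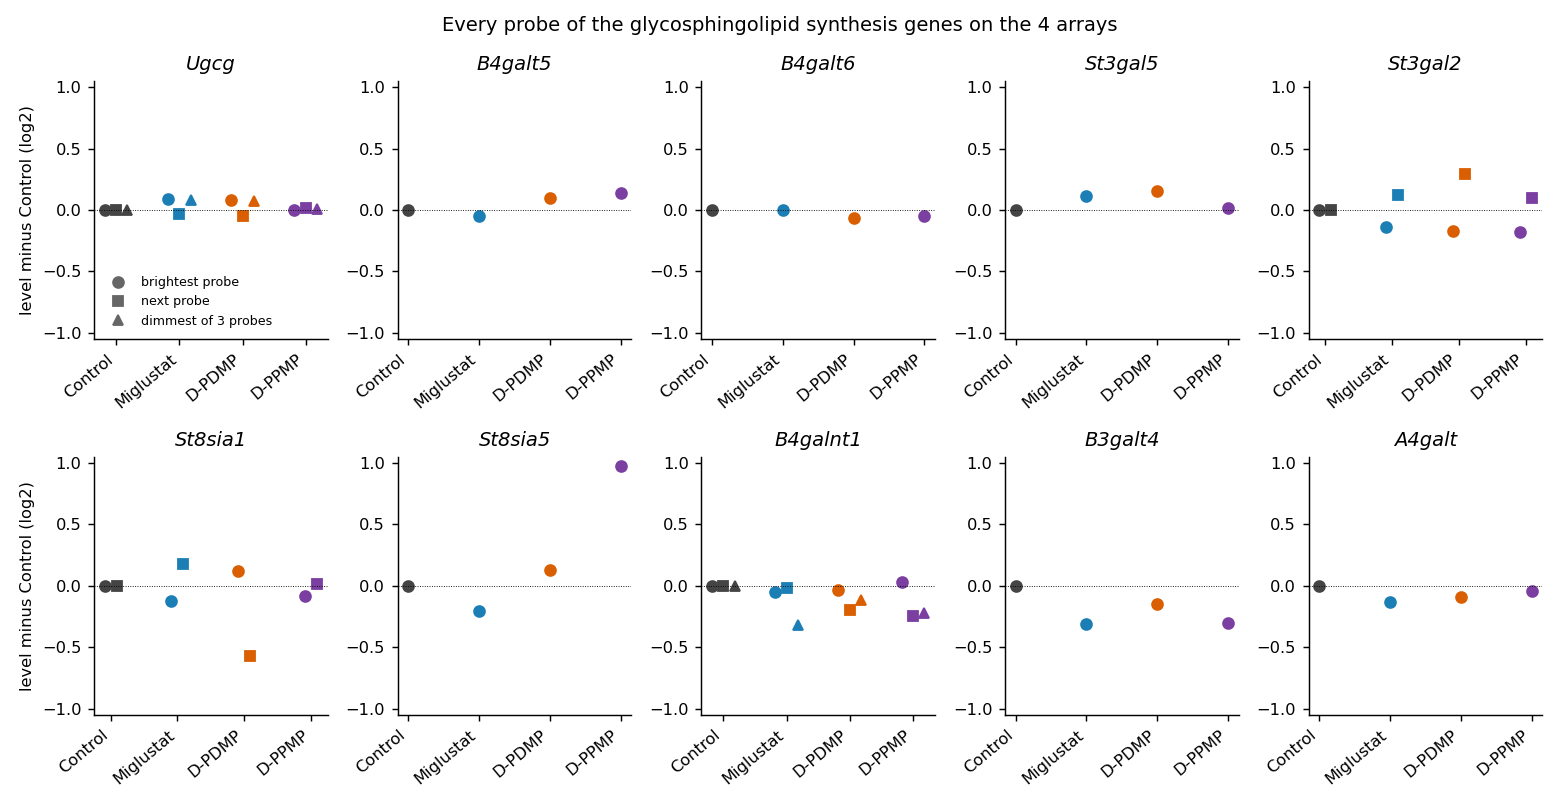
Level of every probe of the 10 genes on the array of Control and of each inhibitor, as the log2 difference from the same probe in Control, with 1 array per group and 1 marker shape per probe. Nearly all points lie close to the dotted Control line, apart from St8sia5 with D-PPMP at 0.97 and the next probe of St8sia1 with D-PDMP at -0.57.

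The entry enzyme, Ugcg, had levels of 1.45 in Control, 1.54 under Miglustat, 1.53 under D-PDMP and 1.45 under D-PPMP on its brightest probe. The processed signals were 498, 555, 545 and 515. The 4 values lay within 0.09 log2 units of each other, and 87.4% of the 14003 genes measured on all 4 arrays spread at least as far. The ratios were 0.09 ± 0.20, 0.08 ± 0.20 and 0.00 ± 0.20, so each was smaller than its error. Ugcg had a further pair of probes for the same transcript accession. One of them lay at -0.03, -0.05 and 0.02, opposite in sign to the brightest probe with Miglustat and D-PDMP, and the dim one at 0.08, 0.08 and 0.01. The mRNA of the inhibited enzyme was therefore within 0.1 log2 units of Control on all 3 of its probes and with all 3 inhibitors.

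Lactosylceramide is made from glucosylceramide by B4galt5 and B4galt6, which have the same known activity. B4galt5 had levels of 3.73 in Control, 3.68 under Miglustat, 3.83 under D-PDMP and 3.87 under D-PPMP. Its lowest value was with Miglustat and its highest with D-PPMP, at ratios of -0.05, 0.10 and 0.14, each ± 0.20. Its probe was bright, with signals of 2416 to 2751, and in the bright class 30.5% of genes with D-PDMP and 21.5% with D-PPMP were at least as far from Control. B4galt6 stood at 0.56 in Control, 0.56 under Miglustat, 0.50 under D-PDMP and 0.51 under D-PPMP. This was the narrowest spread of the 10 genes, 0.07 log2 units, and 94.4% of all genes spread at least as far.

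St3gal5 encodes the sialyltransferase that turns lactosylceramide into GM3, the first ganglioside of the series. It was read by 1 bright probe with processed signals of 4497, 5099, 5196 and 4685 on the arrays in the order given above. The levels were 4.62, 4.74, 4.78 and 4.64, so Miglustat and D-PDMP stood above the other pair of arrays. The ratios were 0.12, 0.16 and 0.01, each ± 0.20, and 27.7%, 13.0% and 90.0% of the bright genes were at least as far from Control. None of the 3 exceeded the software's error of a ratio.

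A4galt encodes the galactosyltransferase that leads lactosylceramide into the globo series instead. Its levels were -0.59 in Control, -0.72 under Miglustat, -0.68 under D-PDMP and -0.64 under D-PPMP. Control was the highest of the 4 arrays, but the ratios of -0.13, -0.09 and -0.05 were all smaller than their errors of 0.20. Among dim genes 58.6%, 71.1% and 87.1% were at least as far from Control.

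The sialyltransferases St8sia1, which adds a further sialic acid to GM3 to give GD3, and St8sia5, which acts on later gangliosides, were both dim. On its brighter probe St8sia1 had levels of -3.93, -4.05, -3.81 and -4.01, from spots with a median brightness of 31, 30, 34 and 31 over a local background of 17, 16, 15 and 17. The ratios were -0.12 ± 0.27, 0.12 ± 0.26 and -0.08 ± 0.27. Its other probe gave 0.18 ± 0.29, -0.57 ± 0.33 and 0.02 ± 0.29, with the sign turned on every array. The value of -0.57 rested on a spot brightness of 27.5 with D-PDMP against 31 in Control. The pair of probes therefore gave no common direction for St8sia1.

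**Figure D2:**
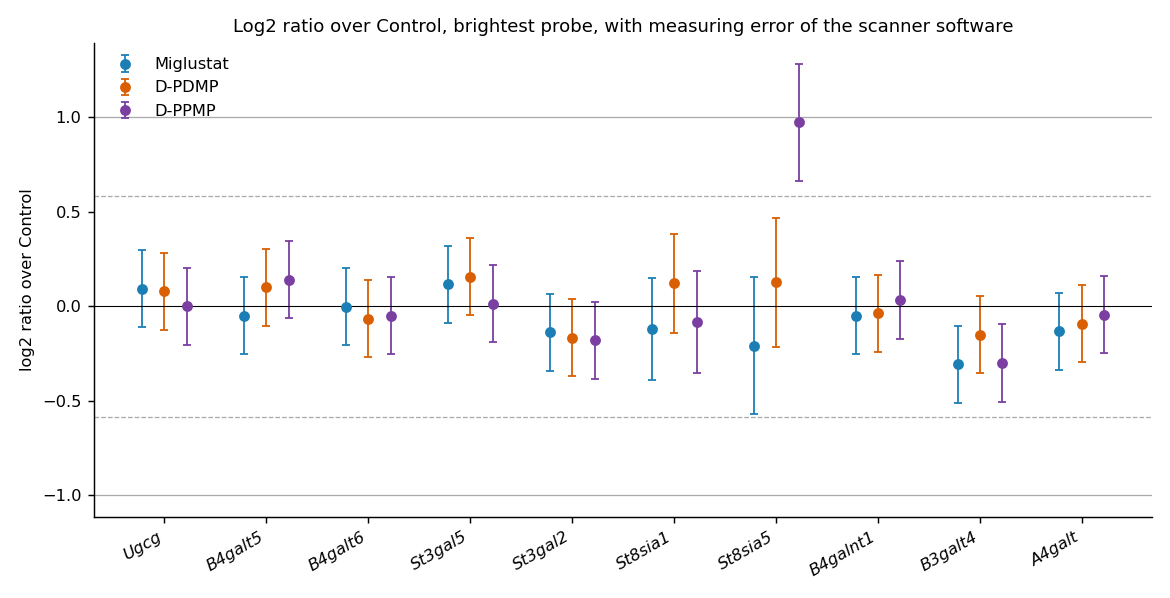
Log2 ratio over Control for the brightest probe of each gene, with 1 point per inhibitor and bars for the measuring error given by the scanner software. Solid grey lines mark 2-fold and dashed lines 1.5-fold, and the bar of St8sia5 with D-PPMP (0.97 ± 0.31) is alone in lying clear of the dashed line.

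St8sia5 had the widest spread of the 10 genes. Its levels were -4.72 in Control, -4.93 under Miglustat, -4.60 under D-PDMP and -3.75 under D-PPMP, so that D-PPMP stood apart from the other 3 arrays. The ratios were -0.21 ± 0.36, 0.13 ± 0.34 and 0.97 ± 0.31, the last being 1.96-fold. Of all measured genes 0.57% were at least as far from Control with D-PPMP, and of the dim genes 1.4%. The processed signals behind it were 6.92, 6.26, 7.83 and 14.0, near the bottom of the scale. Before background correction the spots had a median brightness of 28, 26, 29 and 33 scanner units over a local background of 18, 17, 17 and 17. There was 1 probe and no second one to set beside it. With normexp background correction the ratio with D-PPMP was 0.10, and the gene was no longer past 0.32 log2 units. The normexp offset of 50 exceeds these signals, so a smaller ratio follows from the setting and says nothing about the gene. Among dim genes on the D-PPMP array, 6.1% stood above Control by 1.5-fold or more and 2.55% below it. Detection, too, was highest there (62.4% of probes), and the part of either in the value of St8sia5 was not tested.

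**Figure D3:**
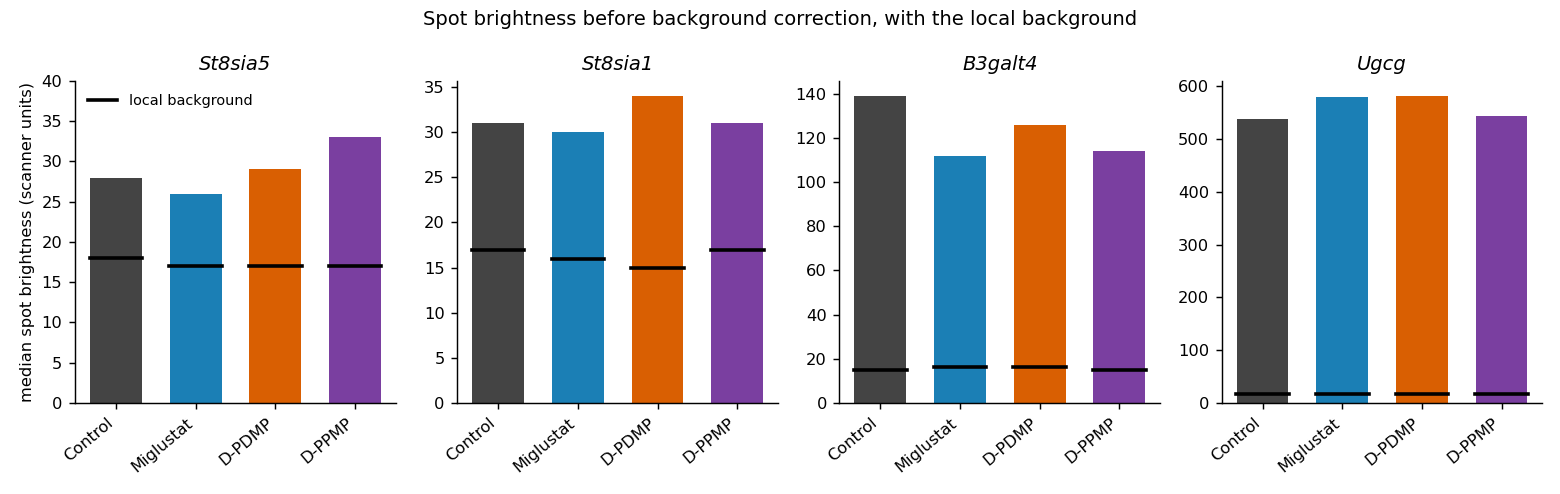
Median spot brightness in scanner units (bars, each panel with its own axis from 0) and local background (black lines) for the brightest probes of St8sia5, St8sia1, B3galt4 and Ugcg on the 4 arrays. The St8sia5 spot reads 28 in Control and 33 with D-PPMP over a background of 17 to 18, whereas the Ugcg spot is between 538.5 and 581.

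B4galnt1, B3galt4 and St3gal2 act in turn on the ganglioside chain. B4galnt1 adds N-acetylgalactosamine to give GM2 and GD2, B3galt4 adds the terminal galactose of GM1, and St3gal2 adds a sialic acid to that galactose. B4galnt1 had levels of 0.45 in Control, 0.40 under Miglustat, 0.42 under D-PDMP and 0.49 under D-PPMP on its brightest probe. The values spread over 0.08 log2 units, and all 3 ratios, at -0.05, -0.04 and 0.03, were far inside the error of 0.20. The other probes of B4galnt1 carry another transcript accession of the gene. They lay at -0.02, -0.20 and -0.24, and at -0.32, -0.12 and -0.23, each ± 0.21. These probes were thus below Control with D-PPMP where the brightest probe was not.

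B3galt4 had the lowest ratio of the 10 genes with Miglustat and with D-PPMP. Its levels were -0.71 in Control, -1.02 under Miglustat, -0.86 under D-PDMP and -1.01 under D-PPMP, so Control was the highest array and D-PDMP lay between. The spots read 139, 112, 126 and 114 over a local background of 15 or 16. The ratios were -0.31 ± 0.21, -0.15 ± 0.20 and -0.30 ± 0.21, and the first and last were 1.24-fold and 1.23-fold below Control. Of the dim genes, 25.0%, 54.7% and 31.0% were at least as far from Control. Only 1 probe read this gene, and the value in the single Control array enters all 3 ratios.

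St3gal2 gave opposite answers on its probes. The bright one, with signals of 1449 to 1590, had levels of 3.12 in Control, 2.99 under Miglustat, 2.96 under D-PDMP and 2.94 under D-PPMP. Control was the highest array, at ratios of -0.14, -0.17 and -0.18, each ± 0.20. Of the bright genes 21.2%, 11.0% and 13.4% were at least as far from Control. The dim probe, with signals of 34.1 to 43.4, lay at 0.12, 0.30 and 0.09, each ± 0.21, and Control was its lowest array. Spot brightness before correction on the bright probe was 1450, 1419, 1439 and 1429, closer together than the processed signals.

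**Figure D4:**
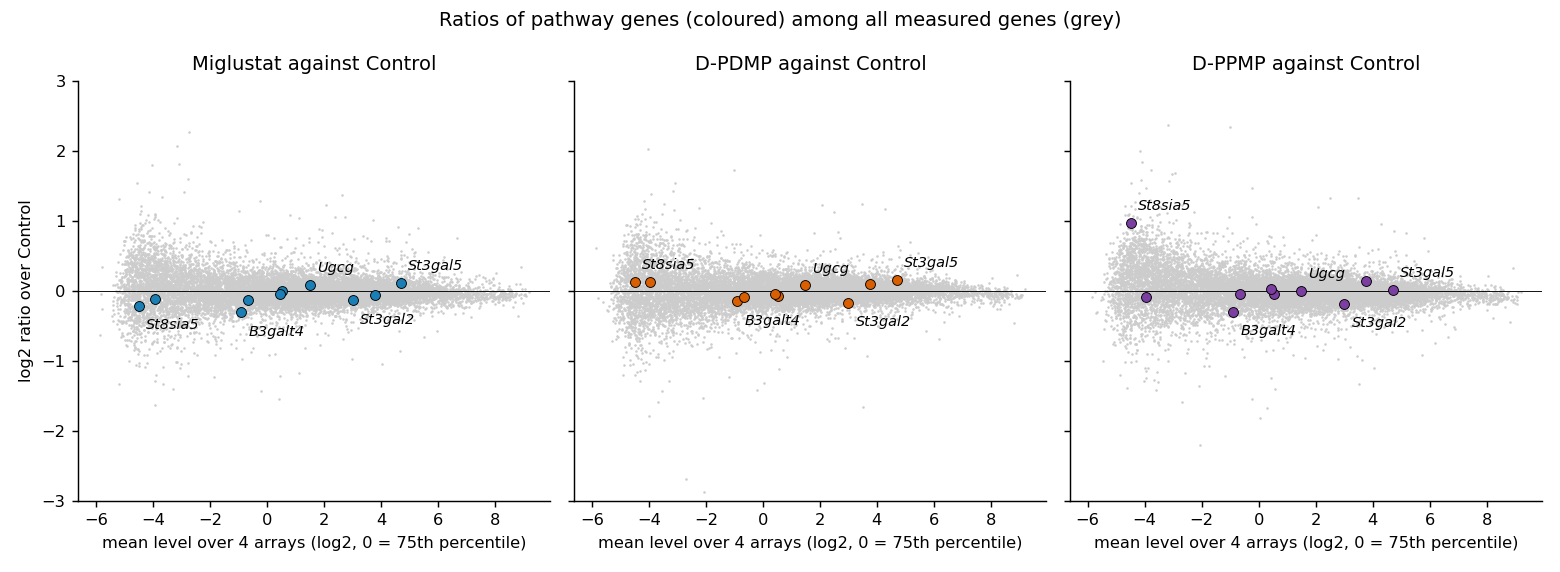
Log2 ratio over Control against the mean level over the 4 arrays for all measured genes (grey) and the 10 glycosphingolipid genes (coloured), with 1 panel per inhibitor. The grey cloud widens toward dim genes on the left, where St8sia5 lies at 0.97 with D-PPMP. The other 9 genes lie within it close to 0.

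Across the 10 genes, the sign of 6 of the 30 ratios depended on the scaling of the arrays. These were Ugcg, St3gal5 and B4galnt1 with D-PPMP, B4galt6 with Miglustat, and St8sia1 and St8sia5 with D-PDMP, and none of them was over 0.13 in size under any scaling. The ratios of B3galt4, St3gal2 and A4galt were below 0 under all 6 scalings with each inhibitor, on their brightest probes. B3galt4 ranged from -0.33 to -0.29 with Miglustat, from -0.18 to -0.15 with D-PDMP and from -0.35 to -0.26 with D-PPMP. For St3gal2 the ranges were -0.14 to -0.09, -0.19 to -0.06 and -0.18 to -0.06.

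By the Euclidean distance over the 3 log2 ratios, the genes closest to St8sia5 among 14003 were Cylc1 at 0.21, 6330415G19Rik at 0.24, 1700001D01Rik at 0.25, Has1 at 0.28 and Olfr391 at 0.29. These were dim as well, with mean levels of -4.50 to -3.39. The closest to Ugcg were Bmi1, Usp16, Anapc15, Terf2ip and Serpinb9, at distances of 0.01 to 0.02. The flat course of Ugcg was common: 1036 genes lay within a distance of 0.1 of it and 8611 within 0.3. For St8sia5 the counts were 0 and 5.

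A wider list held 38 other genes of the pathway, of which 37 had a named probe and 24 were well above background on all 4 arrays. None of these 24 was 2-fold from Control with Miglustat or D-PPMP, and 1 was with D-PDMP, against 0.388%, 0.325% and 0.507% of all genes with Miglustat, D-PDMP and D-PPMP. At 1.5-fold the counts were 0, 1 and 1, beside 2.68%, 2.54% and 3.44% of all genes. At 0.32 log2 units they were 0, 1 and 3, beside 10.4%, 9.71% and 12.8%. With normexp, whose offset draws dim ratios toward 0, the D-PDMP counts were 0 at all 3 limits. Those with D-PPMP were 0 at 1.5-fold and 1 at 0.32 log2 units. The medians were -0.03, -0.04 and -0.06, with 14, 16 and 15 of 24 below Control, beside 55.5%, 50.4% and 51.5% of all genes. With normexp the D-PDMP median was 0.01, so its sign depends on the scaling. Of the rest, 12 genes were well above background on no array, among them Ugt8a and Gal3st1, which make galactosylceramide and sulfatide, B3gnt5, which opens the lacto series, and the sialyltransferase St8sia3. St8sia4, a polysialyltransferase, was well above background with Miglustat alone, where a bound put it 1.22-fold above Control. That bound sets the Miglustat level against the lowest level well above background in Control, and leaves out the measuring error. The ratio itself was 1.90 ± 1.07, from spots of 25 with Miglustat and 21 in Control. The other probe of St8sia4 was well above background on no array.

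**Figure D5:**
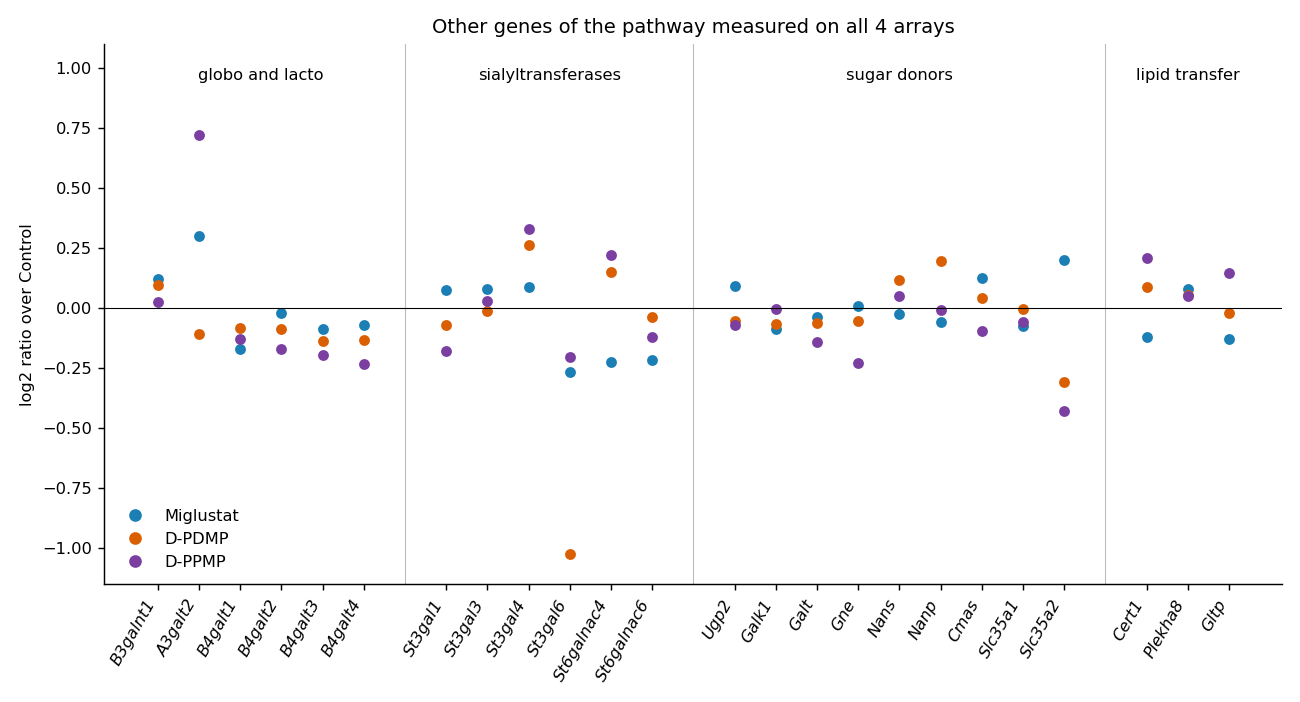
Log2 ratio over Control of the 24 other pathway genes that were well above background on all 4 arrays, in 4 groups, with 1 point per inhibitor. The points beyond 0.32 on either side are A3galt2 (0.72), St3gal4 (0.33) and Slc35a2 (-0.43) with D-PPMP, and St3gal6 with D-PDMP (-1.02).

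Among the 6 measured genes of the globo, lacto and isoglobo branches, 4, 5 and 4 were below Control, beside 55.5%, 50.4% and 51.5% of all genes. Their medians were -0.04, -0.10 and -0.15. The galactosyltransferases B4galt1 to B4galt4 are relatives of B4galt5 that act mainly on other substrates. On their brightest probes the ratios lay between -0.23 and -0.02. Only the lowest of them, B4galt4 with D-PPMP, was larger than its error of 0.20. The other probe of B4galt1 lay at -0.11, 0.03 and -0.14, so its sign with D-PDMP was the opposite. A3galt2, the isoglobo synthase, was at 0.30 ± 0.32, -0.11 ± 0.34 and 0.72 ± 0.30. It belonged to the dim class, with spots of 28, 28.5, 29 and 32 scanner units. Normexp gave 0.05 with D-PPMP, but its offset draws ratios of such dim spots toward 0.

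Of the 6 measured sialyltransferases outside the 10 genes, 3, 4 and 3 were below Control, beside 55.5%, 50.4% and 51.5% of all genes. St3gal4, which adds sialic acid to terminal galactose, had levels of -0.63 in Control, -0.54 under Miglustat, -0.36 under D-PDMP and -0.30 under D-PPMP. Control was its lowest array, at ratios of 0.09, 0.26 and 0.33, each ± 0.20, so that the values with D-PDMP and D-PPMP were larger than their errors. Its spots read 134, 147.5, 154 and 171 scanner units. St6galnac4 (-0.22 with Miglustat and 0.22 with D-PPMP) and St6galnac6 (-0.22 with Miglustat) also exceeded their errors of 0.20 on their brightest probes. The dimmer probe of St6galnac4 lay at -0.07, -0.12 and 0.16, each ± 0.22, so inside its errors. The dimmer probe of St6galnac6 was well above background only in Control and with Miglustat. With Miglustat it stood at 0.70 ± 0.36, opposite in sign to the bright probe. St3gal1 lay at 0.08, -0.07 and -0.18 on its brighter probe and at -0.16, -0.30 and -0.43 on the other. St3gal6, which sialylates galactose mainly on glycoproteins and neolacto chains, was at -0.26 ± 0.26, -1.02 ± 0.31 and -0.20 ± 0.26. Its spots read 33, 30.5, 27.5 and 30, so D-PDMP was the lowest of the 4 arrays. Normexp gave -0.17 with D-PDMP, again with the offset that draws dim ratios toward 0. The other probe of St3gal6 was not well above background on any array.

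The supply of sugar donors was measured with 9 genes, of which 5, 6 and 8 were below Control, beside 55.5%, 50.4% and 51.5% of all genes. Their medians were -0.03, -0.05 and -0.07. Slc35a2, which carries UDP-galactose into the Golgi for both B4galt5 and B4galt6, belonged to the middle class of brightness. Its levels were 2.17 in Control, 2.37 under Miglustat, 1.87 under D-PDMP and 1.74 under D-PPMP. Miglustat was above Control and the other pair below, at 0.20, -0.31 and -0.43, each ± 0.20. Its other probe had the same signs and smaller values, at 0.06, -0.15 and -0.21. Gne, the key enzyme of sialic acid synthesis, was at 0.01, -0.05 and -0.23, and its other probe at 0.08, 0.04 and -0.24, so both probes were lowest with D-PPMP.

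All 3 genes that move ceramide or glucosylceramide between membranes were measured. Cert1, which carries ceramide to the Golgi, was at -0.12, 0.09 and 0.21, each ± 0.20. Gltp, a glycolipid transfer protein, was at -0.13, -0.02 and 0.15. Plekha8, which carries glucosylceramide, lay between 0.05 and 0.08. The dimmer probe of Cert1 lay at 0.07, 0.03 and 0.14, so its sign with Miglustat was the opposite. With D-PPMP the Cert1 ratio on the bright probe was slightly larger than its error, and the other values were inside theirs.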

How the data were processed

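Cy3-labelled cRNA from total RNA was hybridised to 1 array per sample, per the labels. The deposited files hold spot intensity values from Agilent Feature Extraction 12.1.1.1, per the file headers: the processed signal is corrected for background and spatial trend within an array and not normalized between arrays. The authors also deposited a log2 table, which followed log2 processed signal minus the array's 75th percentile with a median difference of 0.01 or less over probes well above background.

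Control spots and outlier spots (66 to 85 per array) were left out, log2 signals were averaged per probe, and the 75th percentile of 56605 probes was subtracted. Accessions matched a RefSeq table of GRCm38.p6 for 32994 probes (58.3%). Other probes stayed unnamed, and no coordinates are given, since the array design names build mm9. A gene takes its brightest probe, and a ratio counts when both arrays are well above background. The dim, middle and bright classes come from the 14003 genes measured on all 4 arrays. Simulated arrays with known folds tested the step that takes ratios, and not the naming, scaling or filtering. Their noise was below the spot SD given above for signals below 32. Alternatives used limma 3.58.1. For normexp the median spot signal was used, with an offset of 50. The genes and lists were chosen with earlier results of these data known. Named were all 10 genes, list genes at 1.5-fold or else the 2 most distant per list, and the 5 closest genes by profile, with further list genes added after their values were seen. No sequence of a probe is printed.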

Additional observations from a re-analysis of the deposited data

How the results depend on the processing

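The alternatives were normexp background correction, quantile and cyclic loess normalization, the authors' log2 table, a 75th percentile taken over detected probes only, the mean of a gene's probes, the next brightest probe and other filters on dim probes. The ratios of Ugcg moved by less than the measuring error under each alternative run. No paired analysis was possible because each group has 1 array.

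Of the 10 genes, the count at least 0.32 log2 units from Control was 2 with Miglustat under quantile normalization, where it had been 0. With D-PPMP it was 2 under quantile normalization, 3 under cyclic loess and 0 with normexp, against 1, and at 1.5-fold it was 0 with normexp. With normexp 8 of the 10 lay below Control with D-PPMP, against 5. The share of all genes below Control under normexp is not given, so this count has no background beside it. Shares of all genes under quantile and cyclic loess normalization are not given. Counts under them, here and for the other pathway genes, therefore have no background beside them. The cause of these shifts was not tested.

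Of the other pathway genes, the count at 0.32 log2 units with Miglustat was 1 under quantile normalization and 1 under cyclic loess, against 0. With normexp the counts at 2-fold, 1.5-fold and 0.32 log2 units with D-PDMP were 0, 0 and 0, against 1 each. At 1.5-fold with D-PPMP the count was 0 with normexp, 0 under quantile normalization and 0 under cyclic loess, against 1, and with normexp it was 1 at 0.32 log2 units, against 3. With no filter on dim probes the counts at 2-fold, 1.5-fold and 0.32 log2 units were 1, 1 and 3 with Miglustat, 3, 5 and 5 with D-PDMP, and 3, 5 and 9 with D-PPMP, since genes not above background then enter.

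Over all genes, normexp left 9, 53 and 324 at 2-fold, 1.5-fold and 0.32 log2 units with Miglustat, against 55, 380 and 1468 of 14171. With D-PDMP it left 6, 33 and 261, against 46, 359 and 1375 of 14154. With D-PPMP it left 14, 59 and 438, against 72, 489 and 1814 of 14200. Without a filter the counts were 1512, 3154 and 5333, then 1756, 3518 and 5598, then 1985, 3815 and 6232. The normexp offset draws ratios of dim genes toward 0, so the lower counts with normexp cannot show whether a dim ratio holds. Signal near background limits what the arrays can show for St8sia1, St8sia5, A3galt2 and St3gal6.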
